A study of Arabidopsis thaliana with 66 samples.

Results

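Gene expression was compared in Arabidopsis thaliana roots of the stock line N8508 between plants given nano-hydroxyapatite as their phosphate source and plants given none. Of the 66 RNA-seq libraries of the study, the 6 labelled with genotype N8508 and the treatments nanoP (3 libraries) and -P (3 libraries) were chosen by those labels. In nanoP, plants grew on a medium that was free of phosphate but held nano-hydroxyapatite, a calcium phosphate mineral in particles. In -P, the medium was free of phosphate and nothing was added. Both treatments lasted 14 days. A further group of 3 N8508 libraries, labelled mock, came from untreated control plants. The other N8508 libraries, 3 labelled -P+Th and 3 labelled nanoP+Th, came from plants that were also given thorium. They were tested against no other group. They entered the filter on low counts, the scaling, the estimate of the spread and the principal component analysis. N8508 is described in the labels as a mutant, and they do not name the mutated gene. For reference, the same pair of treatments was taken from the wild type Col-0 and from another mutant line, N9416, with 3 libraries per group. Tests between lines were run in a fit of all 66 libraries. These also hold the line N8507, and groups of Col-0, N8507 and N9416 that were given thorium. The labels do not say whether the replicates came from separate plants or plates, so every p-value below measures only the spread between these libraries.

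Between 12054532 and 12778750 reads per library were assigned to genes with nanoP and between 9501179 and 12600478 with -P, where all 66 libraries had 9396791 to 16756405. Levels are given as CPM, reads per gene scaled to the library's reads. Correlations of log2 CPM were 0.987 to 0.996 within the groups and 0.967 to 0.973 between nanoP and -P. The 10 most abundant genes took 3.60% to 3.87% of the reads with nanoP and 4.56% to 4.76% with -P. The tissue label was checked against marker genes. The summed level of 10 root markers was 1542 to 1929 CPM with nanoP and 1402 to 2257 CPM with -P. The sum of 13 photosynthesis genes that mark green tissue was 38.2 to 44.2 CPM with nanoP and 29.6 to 82.8 CPM with -P, and that of 7 seed storage genes was 0 to 0.243 CPM with nanoP and 0 with -P. Phloem markers summed to 609 to 682 CPM with nanoP and 771 to 853 CPM with -P, with 4 falls and 1 rise among the 6. The rise was lost without nanoP replicate 2, nanoP replicate 3 or -P replicate 3. Xylem markers summed to 210 to 308 CPM with nanoP and 247 to 354 CPM with -P, and none of the 6 passed the test. In whole roots, fewer cells of a type and less RNA per cell cannot be told apart.

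A plant root takes up inorganic phosphate through PHT1 transporters and loads it into the xylem through PHO1. When phosphate is scarce, the transcription factor PHR1 switches on transporters, secreted phosphatases and enzymes that replace phospholipids with lipids free of phosphorus. SPX proteins, which sense inositol pyrophosphates, hold PHR1 back when phosphate is plentiful. The microRNA miR399 lowers PHO2, a ubiquitin-conjugating enzyme that removes phosphate transporters, and the non-coding RNA IPS1 sequesters miR399 by pairing with it around a bulge that blocks cleavage.

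Of 19908 genes tested, 7566 passed an edgeR adjusted p of 0.05 between nanoP and -P, which is 38.0% of those tested. Of these, 3523 genes rose with nanoP (17.7%) and 4043 fell (20.3%). With library size alone as the scaling, 4617 rose and 3302 fell, so the split between the directions depends on the scaling. The median log2 fold change of all genes tested was -0.01. The falls were the larger changes, with a median size of 0.88 on the log2 scale against 0.58 for the rises. At least 8-fold, 67 genes rose and 210 fell. Between nanoP and mock, 5752 of the same genes passed (28.9%), 2691 of them higher with nanoP (13.5%) and 3061 lower (15.4%). With all 66 libraries in 1 fit, whose estimate of the spread was larger, 5000 genes passed between nanoP and -P and 3262 between nanoP and mock. In a principal component analysis of the 15 N8508 libraries, the first component (53.4% of the variance) had the -P+Th libraries at -87.95 to -85.56 and all others at 0.79 to 43.35, with nanoP at 38.5 to 43.4 and -P at 0.79 to 9.58. The second component (18.6%) had the nanoP libraries at -34.6 to -29.0 and the -P libraries at 37.1 to 47.8, with mock between them at 16.8 to 17.3. All fold changes below are log2 fold changes from edgeR's quasi-likelihood fit, nanoP over -P unless mock or another line is named, and list medians are medians of them.

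The mock group needs a caution before any value is set against it. In N8508, the phosphate-starvation gene IPS1 stood at 867, 1008 and 879 CPM in the mock libraries, on a scale common to all 66 libraries. It had 0.250, 0 and 0.268 CPM in the mock libraries of Col-0 and 0.604, 0 and 0 CPM in those of N9416. The mock roots of N8508 therefore carried high levels of a starvation gene that was near 0 in Col-0 and N9416, and the nanoP roots of N8508 lay below them. Comparisons with mock share the nanoP libraries with the comparison against -P, so values against mock and against -P are not independent.

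Phosphate signalling genes moved in both directions with nanoP. All 12 members tested passed, 6 up and 6 down, with a median log2 fold change of -0.42. IPS1 had 206, 202 and 207 CPM with nanoP, against 1701, 1154 and 1013 CPM with -P. The nanoP libraries lay close together and all below the -P libraries, which differed among themselves by up to 1.7 times (log2 fold change -2.65, SE 0.26, edgeR adjusted p = 2.3e-06). SPX1, an early starvation-induced sensor, had 419, 446 and 520.4 CPM with nanoP, against 1597, 1301 and 1716 CPM with -P, without overlap (log2 fold change -1.74, SE 0.18, edgeR adjusted p = 3.4e-06). SPX3, another sensor of the family, fell further: it had 24.2, 25.6 and 31.7 CPM with nanoP, against 514, 331 and 434 CPM with -P (log2 fold change -3.97, SE 0.29, edgeR adjusted p = 1.1e-07). SPX4 went the other way. This member of the same family had 28.7, 30.9 and 26.3 CPM with nanoP, against 11.2, 7.90 and 10.98 CPM with -P, all nanoP libraries above all -P libraries (log2 fold change 1.51, SE 0.16, edgeR adjusted p = 5.2e-06).

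PHO2 rose with nanoP. It had 538, 562 and 593 CPM with nanoP, against 310.5, 303 and 302 CPM with -P, tight within each group and without overlap (log2 fold change 0.89, SE 0.09, edgeR adjusted p = 3.3e-06). The signalling list also held 2 loci entered as VIH1 and VIH2, which the annotation calls phosphoglycerate mutase-like family proteins. AT3G01310 (VIH2) rose (log2 fold change 1.28) and AT5G15070 (VIH1) fell (log2 fold change -1.90). PHR1 itself rose by a small amount, at 55.6 ± 1.0999 CPM with nanoP against 46.1 ± 3.04 CPM with -P (SD, n = 3 each, log2 fold change 0.27, edgeR adjusted p = 0.016). Against mock, IPS1 was lower with nanoP (log2 fold change -2.19, SE 0.26, edgeR adjusted p = 2.3e-05), and PHO2, at 428, 433 and 427 CPM in mock, was higher (log2 fold change 0.39, SE 0.09, edgeR adjusted p = 0.0047).

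**Figure D1:**
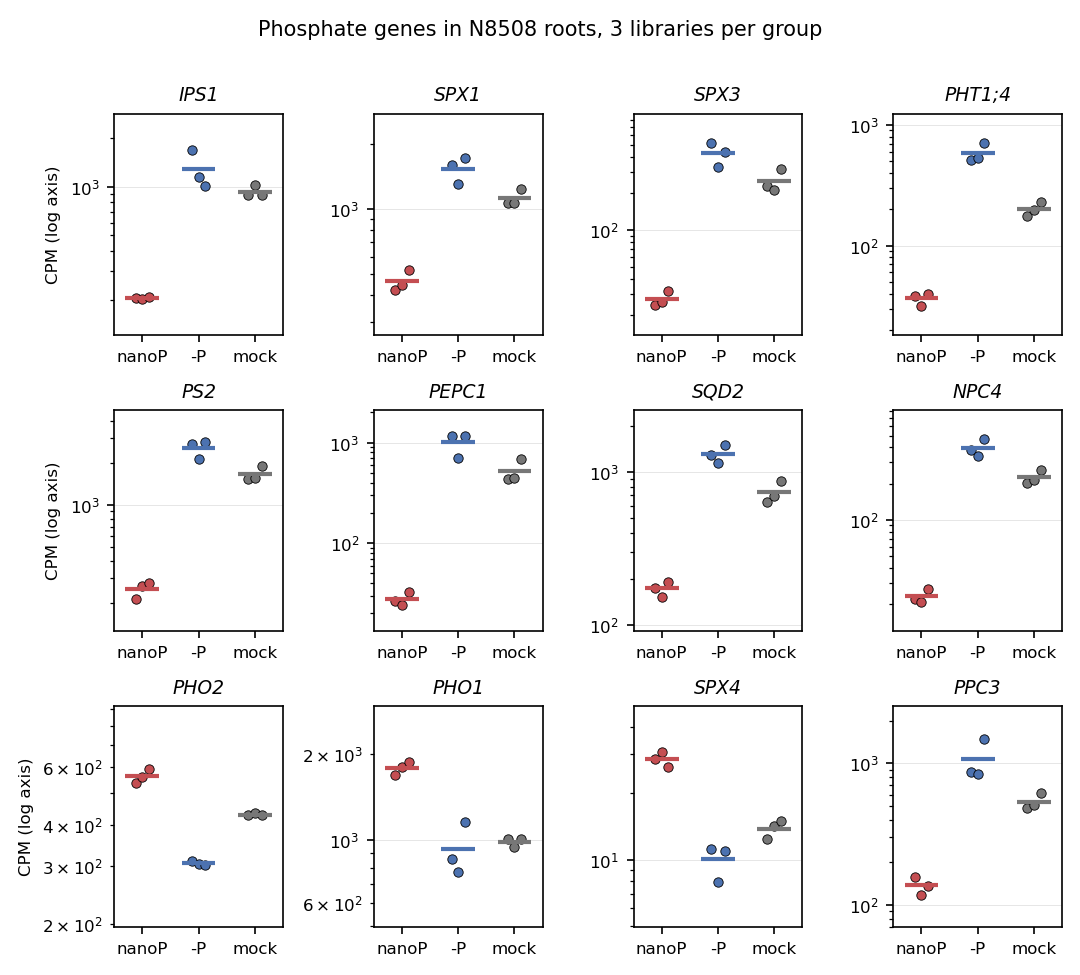
CPM on log axes for 12 phosphate genes in the N8508 libraries of nanoP, -P and mock, 3 points per group with a bar at the mean. IPS1 to NPC4 and PPC3 have all nanoP points below all -P points, and PHO2, PHO1 and SPX4 have all nanoP points above them.

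The IPS1 and PHO2 transcripts carry the pairing sites that link them to miR399, and the letters of the sites are given here. Of the 7 mature miR399 sequences of the RefSeq TAIR10.1 annotation, all but the 5′ arm of miR399c share the seed, bases 2 to 8, given in capitals. The microRNA itself was not measured in these libraries.
miR399b: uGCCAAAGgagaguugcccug
miR399f: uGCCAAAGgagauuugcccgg
The IPS1 site, in its annotated coding sequence on the + strand of TAIR10.1, pairs with miR399b through 18 Watson-Crick and 2 G:U pairs with 1 mismatch, around 3 unpaired bases given in capitals.
IPS1 (chr3:3051224-3051247, + strand): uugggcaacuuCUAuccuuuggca
The IPS1 transcript was searched for sites with and without 3 such unpaired bases, and the PHO2 transcript only for sites without them. The PHO2 gene has 5 sites found in that way, all 5′ of its coding sequence. The site that pairs best with miR399f has 19 Watson-Crick and 2 G:U pairs and no mismatch.
PHO2 (chr2:14281884-14281904, - strand): uugggcaaaucuccuuuggca
PHO2 (chr2:14282106-14282126, - strand): uagggcaaaucuucuuuggca
IPS1, which holds the bulged site, fell to 205 ± 2.90 CPM with nanoP, against 1289.5 ± 363 CPM with -P (SD, n = 3 each). PHO2, which holds the unbroken sites, rose to 564 ± 27.7 CPM with nanoP against 305 ± 4.57 CPM with -P.

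Phosphate transporters mostly fell. Of 15 listed genes for uptake, export and vacuolar transport, 14 were tested, of which 9 fell and 1 rose (median -1.82). PHT1;4, a main uptake transporter of roots, had 38.1, 31.8 and 39.8 CPM with nanoP, against 513, 533 and 706 CPM with -P, a fall without overlap (log2 fold change -4.00, SE 0.17, edgeR adjusted p = 3.1e-09). PHT1;7 was almost without reads with nanoP, at 0.152, 0.324 and 0.0782 CPM with nanoP, against 27.9, 21.4 and 34.1 CPM with -P (log2 fold change -7.17, SE 0.49, edgeR adjusted p = 5.6e-08, and -7.78 without nanoP replicate 2). PHT1;5, which moves phosphate between organs, had 1.37, 1.70 and 2.97 CPM with nanoP, against 42.7, 24.8 and 36.6 CPM with -P (log2 fold change -4.10, SE 0.33, edgeR adjusted p = 3.1e-07). PHT1;3 fell by 2.93, PHO1;H1 by 2.39 and PHT1;9 by 2.30 on the log2 scale, each without overlap.

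The 1 member that rose was PHO1, the xylem loader. It had 1697, 1798 and 1880.2 CPM with nanoP, against 857, 775 and 1157 CPM with -P, all nanoP libraries above all -P libraries (log2 fold change 0.95, SE 0.13, edgeR adjusted p = 6.8e-05). It was also higher than in mock, at 1013, 945 and 1006 CPM there (log2 fold change 0.86, SE 0.13, edgeR adjusted p = 2.5e-04). PHT1;1 had 795, 759.6 and 957 CPM with nanoP, against 1061, 1033 and 1691 CPM with -P and did not pass (log2 fold change -0.59, edgeR adjusted p = 0.057). It shares 64% of its 31-base words with other coding sequences, and PHT1;2, which fell (log2 fold change -2.05, SE 0.26, edgeR adjusted p = 2.7e-05), shares 63%, so how reads were split among such genes is uncertain. Against mock, PHT1;3 and PHT1;4 moved in opposite directions. The list had 2 rises against mock, PHO1 and PHT1;3, and 1 rise without nanoP replicate 3 or mock replicate 2. PHT1;3 was at 19.2, 14.9 and 27.7 CPM in mock, below the nanoP libraries (log2 fold change 0.93, SE 0.25, edgeR adjusted p = 0.011), whereas PHT1;4 was at 177, 198 and 228 CPM in mock, above them (log2 fold change -2.46, SE 0.16, edgeR adjusted p = 1.1e-07).

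Genes that release phosphate from organic compounds fell in 13 of 14 cases (median -2.34), and none rose. PEPC1, a phosphatase of phosphoethanolamine and phosphocholine, had 26.5, 24.3 and 32.7 CPM with nanoP, against 1163, 699 and 1159 CPM with -P, a fall of more than an order of magnitude (log2 fold change -5.18, SE 0.38, edgeR adjusted p = 1.1e-07). PS2, a pyrophosphate-specific phosphatase, had 213, 265 and 275 CPM with nanoP, against 2753, 2132 and 2806 CPM with -P (log2 fold change -3.35, SE 0.26, edgeR adjusted p = 2.0e-07). The purple acid phosphatase PAP23 had 1.75, 1.86 and 3.52 CPM with nanoP, against 59.7, 44.9 and 53.1 CPM with -P (log2 fold change -4.46, SE 0.32, edgeR adjusted p = 1.1e-07). PAP25, PAP24 and PAP14, of the same family, fell by 5.98, 3.59 and 4.72 on the log2 scale. Without nanoP replicate 2, which held most of their few nanoP reads, the log2 fold changes of PAP25 and PAP14 were -7.74 and -5.40. PAP26, which is known to be made without regard to phosphate supply, was the member that did not pass. It was at 112 ± 5.12 CPM with nanoP and 99.2 ± 12.6 CPM with -P (SD, n = 3 each, edgeR adjusted p = 0.15).

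Membrane lipid remodelling genes gave 12 falls and no rise among 14 tested of 15 (median -1.72). NPC4, a phospholipase C that cleaves membrane phospholipids, had 22.2, 20.9 and 26.9 CPM with nanoP, against 381, 338 and 466 CPM with -P (log2 fold change -4.08, SE 0.24, edgeR adjusted p = 1.7e-08). SQD2, which makes sulfolipid, had 174, 152 and 191 CPM with nanoP, against 1292, 1134 and 1507 CPM with -P (log2 fold change -2.93, SE 0.23, edgeR adjusted p = 2.3e-07). MGD3 and MGD2, which start the synthesis of galactolipids outside plastids, fell by 2.38 and 2.12 on the log2 scale. The phosphatidate phosphatase PAH1 fell by 2.24 on the log2 scale, whereas its relative PAH2 had a log2 fold change of 0.13 and did not pass. Among 12 genes of PEP carboxylase, its kinases and organic acid release, 7 fell and none rose (median -1.08). PPC3, a PEP carboxylase of roots, had 158, 118 and 136 CPM with nanoP, against 869, 836 and 1483 CPM with -P (log2 fold change -2.95, SE 0.25, edgeR adjusted p = 3.8e-07), and the kinase that activates such enzymes, PPCK1, fell by 1.18 on the log2 scale. In none of these named genes did the nanoP and -P libraries overlap, except in PAH2 and PAP26. Groups that did not overlap were common in this comparison, at 48.2% of all genes tested.

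The 250 bases before the annotated gene start were searched for the P1BS motif, GNATATNC, which PHR1 binds. The motif reads the same on both strands, so 1 scan covers both. In all 19786 tested genes with a window, 5.49% held it. It was found before 17 of the 68 phosphate genes with a window, all of them among the 47 that fell (36.2%), and before none of the 7 that rose and none of the 12 that did not pass, and 2 were not tested. By list, it stood before 7 of 14 phosphatase genes, 5 of 15 lipid genes, 2 of 15 transport genes, 2 of 12 PEP carboxylase and organic acid genes and 1 of 12 signalling genes. Over all tested genes the share was 8.48% of those that fell, 4.92% of those that rose and 4.67% of those that did not pass. A match is a string of letters and was not tested for binding.

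The windows of 3 genes that fell by at least 8-fold and hold the motif, and of SPX4, which rose and lacks it, are given from TAIR10.1, read 5′ to 3′ on the strand of the gene with the motif in capitals. The SPX3 window has the motif at 213 and 90 bases before the start, PAP23 at 96 and PS2 at 217.
SPX3 (chr2:18606160-18606409, + strand): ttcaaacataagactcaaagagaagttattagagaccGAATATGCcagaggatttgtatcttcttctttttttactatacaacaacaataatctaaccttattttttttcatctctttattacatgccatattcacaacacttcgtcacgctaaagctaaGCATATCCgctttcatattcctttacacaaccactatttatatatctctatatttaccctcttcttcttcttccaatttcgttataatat
PS2 (chr1:27466349-27466598, - strand): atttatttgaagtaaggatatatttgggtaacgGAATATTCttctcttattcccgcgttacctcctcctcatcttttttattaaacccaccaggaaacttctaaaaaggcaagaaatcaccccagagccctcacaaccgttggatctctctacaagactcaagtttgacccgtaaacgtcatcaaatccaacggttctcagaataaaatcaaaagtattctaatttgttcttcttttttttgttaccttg
PAP23 (chr4:7958920-7959169, - strand): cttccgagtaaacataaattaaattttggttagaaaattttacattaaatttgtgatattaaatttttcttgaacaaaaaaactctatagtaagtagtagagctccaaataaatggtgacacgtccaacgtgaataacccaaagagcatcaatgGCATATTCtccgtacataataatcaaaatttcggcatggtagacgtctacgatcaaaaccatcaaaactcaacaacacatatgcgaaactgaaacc
SPX4 (chr5:4980124-4980373, + strand): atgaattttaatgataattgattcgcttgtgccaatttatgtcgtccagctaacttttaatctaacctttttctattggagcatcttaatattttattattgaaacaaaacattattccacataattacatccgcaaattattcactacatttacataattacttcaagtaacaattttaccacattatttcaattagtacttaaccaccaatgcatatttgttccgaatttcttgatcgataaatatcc
The windows of IPS1, SPX1, PHT1;4, PEPC1, MGD3 and SQD2, which also fell, hold no match, which says only that these letters are absent from 250 bases.

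Nitrate genes rose more often than they fell. Of 20 genes of nitrate transport and its repressors, 10 rose and 5 fell (median 0.63), and 11 were higher than in mock. NRT1.5, which loads nitrate into the xylem, had 2408, 2668 and 3054 CPM with nanoP, against 613, 459.8 and 731 CPM with -P, all nanoP libraries far above all -P libraries (log2 fold change 2.17, SE 0.19, edgeR adjusted p = 5.7e-07). SLAH1, an anion channel subunit that steers chloride and nitrate towards the xylem, had 30.6, 41.8 and 37.3 CPM with nanoP, against 0.208, 0 and 0.0864 CPM with -P (edgeR adjusted p = 5.6e-08). The -P libraries held 3 reads of it in all, against 1395 in the nanoP libraries, a ratio of 395 per assigned read with an exact 95% counting interval of 135 to 1920. BT1 and BT2, scaffold proteins that repress nitrate uptake genes, both rose. BT1 had 1257, 1508 and 1714 CPM with nanoP, against 346, 159 and 277 CPM with -P (log2 fold change 2.52, SE 0.24, edgeR adjusted p = 1.4e-06), and BT2 rose by 2.36 on the log2 scale.

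The high-affinity nitrate transporters NRT2.5 and NRT2.6 moved in opposite directions. NRT2.5 had 27.8, 36.7 and 69.0 CPM with nanoP, against 1.35, 4.22 and 13.1 CPM with -P (log2 fold change 2.80, SE 0.57, edgeR adjusted p = 0.0012), and the -P libraries spread over almost 10-fold. Without -P replicate 3, the highest of them, the log2 fold change was 4.01. NRT2.6 had 3.12, 1.94 and 2.502 CPM with nanoP, against 5.50, 25.4 and 33.5 CPM with -P (log2 fold change -3.09, SE 0.58, edgeR adjusted p = 0.0011). NRT1.1, the dual-affinity nitrate transporter and sensor, rose by 1.72 on the log2 scale. Among 18 tested genes of ammonium and urea uptake and nitrogen assimilation, 4 rose and 7 fell (median -0.02). Without nanoP replicate 3 or -P replicate 2, 2 of them rose. DUR3, a urea transporter, had 50.2, 55.1 and 61.9 CPM with nanoP, against 12.7, 19.1 and 23.9 CPM with -P (log2 fold change 1.58, SE 0.24, edgeR adjusted p = 1.1e-04), whereas GDH3, a glutamate dehydrogenase, had 6.4002, 8.01 and 9.62 CPM with nanoP, against 57.7, 41.7 and 56.7 CPM with -P (log2 fold change -2.70, SE 0.28, edgeR adjusted p = 3.3e-06). GDH1, of the same enzyme family, rose by 0.996, and GDH2 fell by 0.99, both on the log2 scale.

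Sulfur genes fell more often than they rose, with 10 falls and 3 rises among 21 tested (median -0.43). Without nanoP replicate 1, 1 of them rose. SULTR1;3, a sulfate transporter of the phloem, had 0.381, 0.162 and 0.313 CPM with nanoP, against 41.6, 50.8 and 66.3 CPM with -P (log2 fold change -7.47, SE 0.33, edgeR adjusted p = 3.5e-09). SULTR1;1, a high-affinity sulfate uptake transporter of the root surface, had 64.3, 54.1 and 73.3 CPM with nanoP, against 10.3, 8.66 and 16.4 CPM with -P, the opposite direction (log2 fold change 2.43, SE 0.28, edgeR adjusted p = 1.0e-05). LSU2 and SDI1, both known as low-sulfur response genes, fell by 3.23 and 2.79 on the log2 scale, and SULTR2;1 by 2.90. The reductase APR1 fell by 1.02 on the log2 scale. For SULTR1;1, mock was lower than nanoP, at 5.47, 5.70 and 4.82 CPM (log2 fold change 3.59, SE 0.31, edgeR adjusted p = 1.1e-06).

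The potassium list of 7 genes had 2 rises and 2 falls (median -0.03). SKOR, the channel that releases potassium into the xylem, had 46.0, 54.6 and 51.7 CPM with nanoP, against 0.623, 1.19 and 1.21 CPM with -P (log2 fold change 5.63, SE 0.40, edgeR adjusted p = 9.7e-08). HAK5, the high-affinity uptake transporter induced by low potassium, had 17.1, 19.0 and 19.5 CPM with nanoP, against 272, 202 and 331 CPM with -P (log2 fold change -3.85, SE 0.20, edgeR adjusted p = 5.8e-09). The uptake channel AKT1 had 299 ± 1.28 CPM with nanoP, against 192 ± 4.39 CPM with -P (SD, n = 3 each) and rose by 0.64 on the log2 scale. GORK, a potassium release channel, had a log2 fold change of -0.41 and lost its call without nanoP replicate 1, nanoP replicate 3 or -P replicate 2 (edgeR adjusted p = 0.16 without the last). Of 18 tested aquaporins, 4 rose and 6 fell (median -0.31). PIP1;4 had 39.3, 42.5 and 38.2 CPM with nanoP, against 131, 171 and 146 CPM with -P (log2 fold change -1.90, SE 0.13, edgeR adjusted p = 5.6e-08), and TIP2;3 and TIP2;2 fell by 1.26 and 1.17 on the log2 scale.

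**Figure D2:**
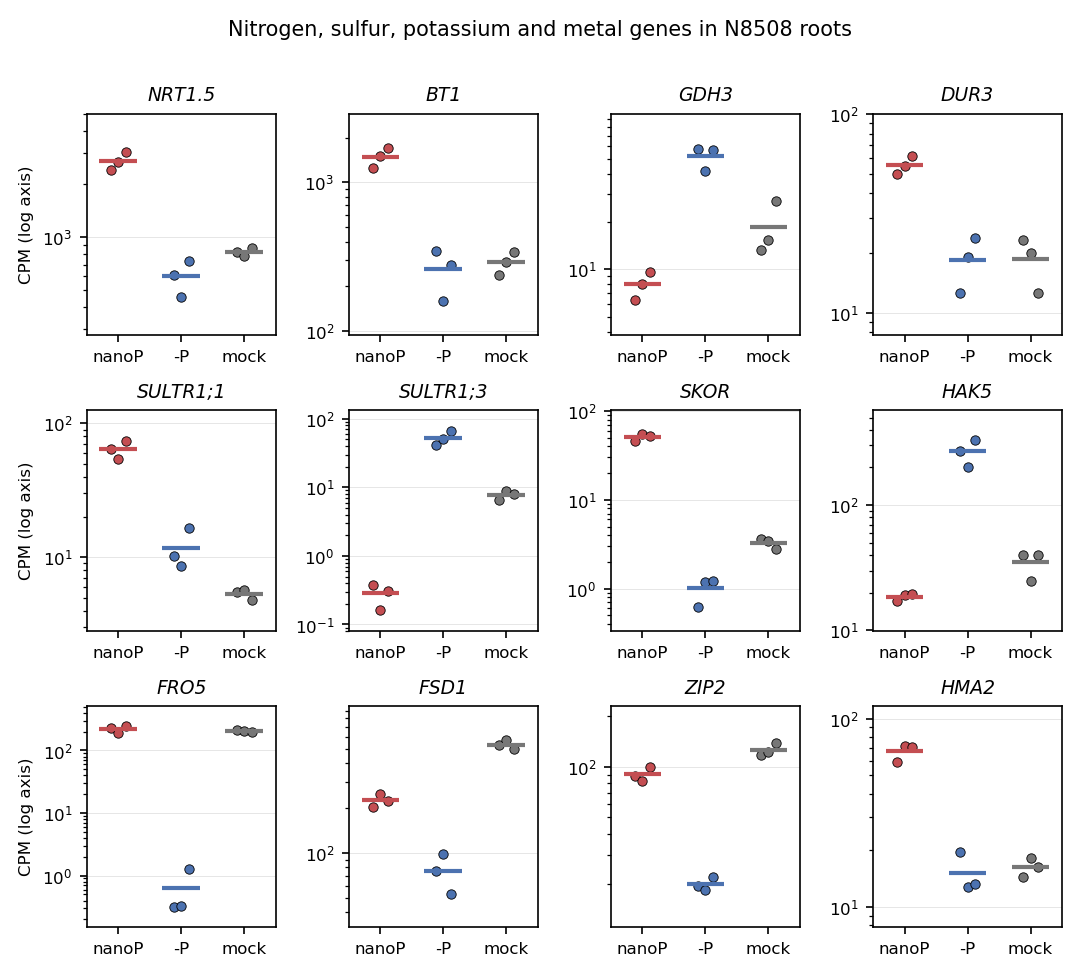
CPM on log axes for 12 genes of nitrogen, sulfur, potassium and metal transport in N8508 libraries of nanoP, -P and mock, 3 points per group with a bar at the mean. NRT1.5, BT1, SULTR1;1, SKOR and HMA2 are highest with nanoP, whereas FRO5 has nanoP and mock points together and the -P points more than 100-fold lower.

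The copper list had 5 rises and 3 falls among 10 tested (median 0.87). FRO5, a reductase that prepares copper for uptake, had 231, 190.3 and 243 CPM with nanoP, against 0.311, 0.325 and 1.296 CPM with -P and 215, 202 and 194 CPM in mock (log2 fold change 8.31, SE 0.45, edgeR adjusted p = 6.9e-09). The nanoP and mock libraries overlapped. Without -P replicate 3, the log2 fold changes of FRO5 and COPT2 against -P were 9.40 and 6.18. FRO5 shares 14% of its 31-base words with other coding sequences. The copper transporter COPT2 had 14.6, 10.1 and 12.04 CPM with nanoP, against 0, 0.325 and 0.778 CPM with -P (log2 fold change 4.93, SE 0.66, edgeR adjusted p = 7.2e-05). FSD1, the iron superoxide dismutase that replaces the copper enzymes at low copper, had 203, 250.1 and 221 CPM with nanoP, against 75.7, 97.7 and 53.2 CPM with -P (log2 fold change 1.58, SE 0.17, edgeR adjusted p = 6.3e-06). The copper-zinc superoxide dismutases went the other way. CSD1 had 165, 139 and 159 CPM with nanoP, against 328, 331 and 361 CPM with -P (log2 fold change -1.14, SE 0.10, edgeR adjusted p = 5.6e-07), and CSD2 fell by 0.58 on the log2 scale. Against mock the directions of both enzymes were turned round. FSD1 was lower with nanoP than with mock, which stood at 528, 572 and 501 CPM (log2 fold change -1.25, SE 0.17, edgeR adjusted p = 8.2e-05), and CSD1 was higher than with mock, at 64.5, 53.1 and 52.2 CPM (log2 fold change 1.45, SE 0.10, edgeR adjusted p = 1.7e-07).

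Most iron uptake genes did not pass, which was also true of all genes tested, where 17.7% rose and 20.3% fell. Of 16 tested of 21, 3 rose (18.8%) and 1 fell (6.25%), with a median of 0.34. Without nanoP replicate 1, 1 rose, and without -P replicate 1, 2 fell. IRT1, the main iron uptake transporter, had 77.9, 34.0 and 45.0 CPM with nanoP, against 9.65, 19.9 and 46.2 CPM with -P (log2 fold change 1.04, SE 0.49, edgeR adjusted p = 0.11). The -P libraries spread over almost 5-fold, and without -P replicate 3, the highest of them, IRT1 passed (log2 fold change 1.84, edgeR adjusted p = 0.012). The ferric reductase FRO2 spread even more, at 61.7, 24.4 and 47.8 CPM with nanoP, against 3.63, 22.1 and 63.6 CPM with -P. The iron storage list had 2 rises and 2 falls among 7 tested (median -0.28), with 1 fall when any 1 of the nanoP libraries or -P replicate 2 was left out. Ferritin FER1 had 298, 266 and 284 CPM with nanoP, against 426, 442 and 491 CPM with -P, all nanoP libraries below all -P libraries (log2 fold change -0.68, SE 0.10, edgeR adjusted p = 1.4e-04). Its mock libraries, at 298, 248 and 236 CPM, did not differ from nanoP past the test. The vacuolar iron transporter-like genes VTL2 and VTL5 rose by 1.93 and 1.78 on the log2 scale. Among 5 tested coumarin genes, 2 fell and none rose (median -0.18), among them F6'H1, an enzyme of scopoletin synthesis, at 130.4 ± 21.7 CPM with nanoP, against 299.8 ± 116 CPM with -P (SD, n = 3 each, log2 fold change -1.201, edgeR adjusted p = 0.0016).

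Zinc and other metal genes had 6 rises and 3 falls among 19 tested (median -0.02). HMA2, the pump that loads zinc into the xylem, had 59.1, 71.2 and 71.0 CPM with nanoP, against 19.5, 12.8 and 13.3 CPM with -P, with mock at 14.4, 18.3 and 16.3 CPM (log2 fold change 2.14, SE 0.20, edgeR adjusted p = 1.2e-06). ZIP10 had 6.93, 8.25 and 8.68 CPM with nanoP, against 0, 0.433 and 0.519 CPM with -P (log2 fold change 4.56, SE 0.50, edgeR adjusted p = 1.4e-05), and ZIP2 had 87.7, 82.8 and 99.8 CPM with nanoP, against 19.5, 18.4 and 22.1 CPM with -P (log2 fold change 2.17, SE 0.13, edgeR adjusted p = 1.7e-08), both metal uptake transporters of the ZIP family. Without -P replicate 3, the log2 fold change of ZIP10 was 5.16. NAS2, which makes the chelator nicotianamine, fell by 1.92 on the log2 scale, and the metallothionein MT3 by 1.46.

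Genes of the suberin barrier, the waxy polymer laid down in endodermal walls, fell together. Of 13 tested, 11 fell and none rose (median -1.45). FAR4, a fatty acyl reductase, had 33.1, 26.6 and 34.9 CPM with nanoP, against 249.8, 174 and 222 CPM with -P (log2 fold change -2.77, SE 0.18, edgeR adjusted p = 3.5e-08). FACT, an acyltransferase of the list, had 65.4, 88.0 and 92.7 CPM with nanoP, against 401, 395 and 427 CPM with -P (log2 fold change -2.31, SE 0.16, edgeR adjusted p = 5.9e-08). CYP86A1, the fatty acid hydroxylase of root suberin, had 52.0, 44.4 and 58.1 CPM with nanoP, against 159.6, 229 and 293 CPM with -P (log2 fold change -2.14, SE 0.17, edgeR adjusted p = 3.1e-07). FAR5, FAR1 and KCS2 fell by 2.01, 1.91 and 1.83 on the log2 scale. The nanoP libraries were also below mock for 12 of the 13 genes, for CYP86A1 with 286, 286 and 268 CPM in mock (log2 fold change -2.44, SE 0.18, edgeR adjusted p = 2.2e-07).

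Phenylpropanoid and lignin genes gave 10 falls and 1 rise among 16 (median -0.62). CCR1, the entry enzyme of lignin monomers, had 141, 139 and 150.2 CPM with nanoP, against 309, 295 and 321 CPM with -P (log2 fold change -1.103, SE 0.09, edgeR adjusted p = 4.1e-07). COMT1, CCOAOMT1 and 4CL1 fell by 1.19, 1.23 and 1.25 on the log2 scale. The rise was FAH1, ferulate 5-hydroxylase, with 65.2, 41.2 and 41.8 CPM with nanoP, against 3.84, 8.98 and 14.6 CPM with -P (log2 fold change 2.41, SE 0.41, edgeR adjusted p = 3.3e-04). Casparian strip genes had 2 rises and 5 falls among 10 tested (median -0.50). The count of falls hung on single libraries: it was 1 without nanoP replicate 2 or -P replicate 3, 2 without nanoP replicate 3 or -P replicate 2, and 8 without -P replicate 1. CASP1, a scaffold protein of the strip, fell by 0.72, whereas MYB36, its regulator, rose by 0.72, both on the log2 scale. Secondary wall and xylem genes had 3 falls and no rise among 12 (median -0.34), among them IRX9, a xylan synthesis gene, which fell by 1.095 on the log2 scale. The flavonoid list held 7 tested genes of 11, of which 5 fell and none rose (median -3.34).

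Chalcone synthase TT4, the first enzyme of flavonoids, had no read in any nanoP library, against 38.2, 55.2 and 24.7 CPM with -P. With a floor of 3 reads over the nanoP group, the fall was at least 8.95 on the log2 scale, and mock stood at 3.48, 1.84 and 0.816 CPM. FLS1, flavonol synthase, had 0.686, 0.404 and 0.626 CPM with nanoP, against 8.10, 11.5 and 11.6 CPM with -P (log2 fold change -4.15, SE 0.37, edgeR adjusted p = 8.5e-07).

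**Figure D3:**
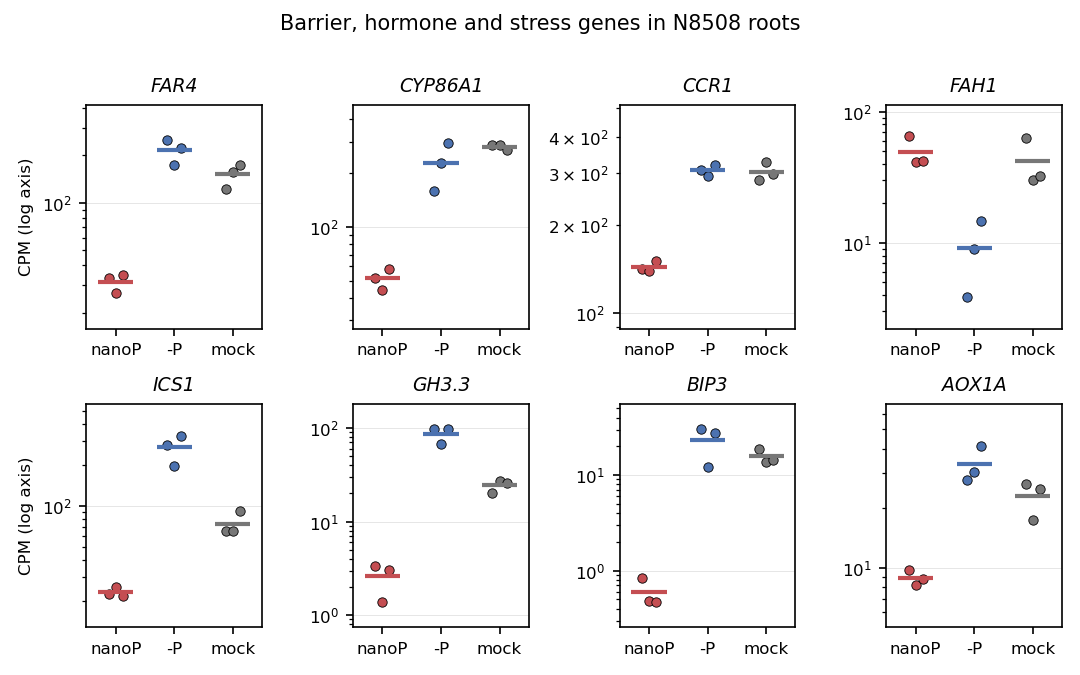
CPM on log axes for 8 genes of suberin (FAR4, CYP86A1), lignin (CCR1, FAH1), salicylate (ICS1), auxin (GH3.3), endoplasmic reticulum stress (BIP3) and alternative respiration (AOX1A) in N8508 libraries of nanoP, -P and mock, 3 points per group with a bar at the mean. FAH1 is higher with nanoP than with -P and overlaps mock, and the other 7 have all nanoP points below all -P and all mock points.

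In each list of defence and hormone genes falls outnumbered rises, and many genes did not pass. Falls also outnumbered rises over all genes tested, of which 20.3% fell and 17.7% rose. The share that fell ran from 27.3% of jasmonate response genes to 61.5% of genes of jasmonate synthesis and turnover. Of 14 tested genes of camalexin, pipecolate and salicylate defence, 7 fell and 2 rose (median -1.17). The rises were 4 without -P replicate 3 and 1 without nanoP replicates 2 or 3 or -P replicates 1 or 2. ICS1, the enzyme that makes salicylate from chorismate, had 22.4, 25.2 and 21.8 CPM with nanoP, against 282, 195 and 329 CPM with -P (log2 fold change -3.54, SE 0.18, edgeR adjusted p = 5.7e-09). ALD1 and FMO1, which make the immune signal N-hydroxypipecolate, fell by 4.58 and 2.35 on the log2 scale. PR2, a salicylate-induced glucanase, had 0, 0.566 and 0 CPM with nanoP, against 2.28, 5.41 and 9.68 CPM with -P (log2 fold change -4.91, SE 0.80, edgeR adjusted p = 2.2e-04). All its nanoP reads came from replicate 2, without which the nanoP libraries held none, and without -P replicate 3 its log2 fold change was -4.30. The transcription factor WRKY33 rose by 1.005 on the log2 scale. In jasmonate synthesis and turnover, 8 of 13 tested genes fell and 1 rose (median -0.60). AOC1, allene oxide cyclase, had 0.152, 0 and 0 CPM with nanoP, against 11.4, 8.98 and 13.1 CPM with -P (edgeR adjusted p = 1.8e-07). The nanoP libraries held 2 reads of it in all, against 345 in the -P libraries, so that it was 203 times higher with -P per assigned read, with an exact 95% counting interval of 55.7 to 1682. The jasmonate response list had 2 rises and 3 falls among 11 (median -0.30, 1 rise without any 1 of nanoP replicates 2 or 3 or the -P libraries), and its repressor JAZ10 fell by 2.11 on the log2 scale.

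The auxin list had 6 falls and no rise among 17 tested (median -0.26). GH3.3, which conjugates auxin to amino acids, had 3.35, 1.37 and 3.05 CPM with nanoP, against 97.9, 67.1 and 96.4 CPM with -P (log2 fold change -5.06, SE 0.25, edgeR adjusted p = 3.5e-09), and the transporter PIN7 fell by 0.83 on the log2 scale. Of 11 tested abscisic acid and dehydration genes, 6 fell and none rose (median -0.51). RD29A had 3.12, 3.48 and 2.81 CPM with nanoP, against 11.4, 36.3 and 16.4 CPM with -P (log2 fold change -2.76, SE 0.57, edgeR adjusted p = 0.0014). Without -P replicate 2, the highest, the log2 fold change was -2.15. The ethylene list had 1 rise and 4 falls among 13 (median -0.36, no rise without nanoP replicate 3 or -P replicate 1, and 2 without -P replicate 3), with the ACC oxidase ACO4, which fell by 1.22 on the log2 scale.

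The share of genes that fell differed widely among stress lists, between 5.56% of heat shock genes and 92.3% of endoplasmic reticulum folding genes, where it was 20.3% of all genes tested. Among 32 tested glutathione transferases and stress glucosyltransferases, 18 fell and none rose (median -1.003). GSTU8 had 9.75, 11.9 and 10.7 CPM with nanoP, against 119.8, 58.0 and 82.3 CPM with -P (log2 fold change -3.01, SE 0.24, edgeR adjusted p = 2.7e-07), and GSTU22 had 1.98, 2.26 and 2.66 CPM with nanoP, against 47.5, 20.3 and 32.7 CPM with -P (log2 fold change -3.86, SE 0.26, edgeR adjusted p = 5.9e-08). The reactive oxygen list had 2 rises and 4 falls among 15 (median -0.55), with 1 rise without nanoP replicates 2 or 3 or -P replicates 1 or 2. AOX1A, the alternative oxidase, had 9.83, 8.17 and 8.76 CPM with nanoP, against 27.9, 30.6 and 41.4 CPM with -P (log2 fold change -1.90, SE 0.22, edgeR adjusted p = 1.1e-05), and NDB2, the alternative NADH dehydrogenase known to be expressed with it, fell by 1.88 on the log2 scale. Of 13 genes for folding in the endoplasmic reticulum, 12 fell and none rose (median -0.42). The falls were 6 without nanoP replicate 2 and 7 without nanoP replicate 3. The stress-induced chaperone BIP3 had 0.838, 0.485 and 0.469 CPM with nanoP, against 30.3, 12.02 and 27.6 CPM with -P (log2 fold change -5.26, SE 0.38, edgeR adjusted p = 1.0e-07), and the protein disulfide isomerase PDIL1-2 fell by 1.12 on the log2 scale. BIP1 and BIP2 share 48% and 46% of their 31-base words with other coding sequences, and their smaller falls are uncertain. Of 18 heat shock genes, 1 fell and none rose (median -0.44). That gene, MBF1C, had a log2 fold change of -0.57 and lost its call without any 1 of nanoP replicates 1, 2 or 3 or -P replicates 2 or 3 (edgeR adjusted p = 0.062 to 0.17). Against mock, 16 of the 18 were lower with nanoP. The DNA damage list had 2 falls and no rise among 10 (median -0.08, 1 fall without nanoP replicates 2 or 3 or -P replicates 1 or 2, and 1 rise without -P replicate 1), among them the poly(ADP-ribose) polymerase PARP2, which fell by 1.06 on the log2 scale.

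Rises outnumbered falls among genes of fermentation and of sugar supply. The hypoxia list had 5 rises and no fall among 13 (median 0.83), and 8 rises without nanoP replicate 1. SUS1, sucrose synthase, had 736, 1079 and 1218 CPM with nanoP, against 226, 321 and 314 CPM with -P (log2 fold change 1.82, SE 0.22, edgeR adjusted p = 1.3e-05), and ADH1, alcohol dehydrogenase, had 1144, 1433 and 1564 CPM with nanoP, against 322, 519 and 653 CPM with -P (log2 fold change 1.47, SE 0.33, edgeR adjusted p = 0.0026). ADH1 and the haemoglobin HB1 were higher still in mock, with 3448, 2585 and 1962 CPM for ADH1 (log2 fold change -0.95, SE 0.33, edgeR adjusted p = 0.04). Of 16 tested sugar genes, 6 rose and 3 fell (median 0.14). TPS8, a class II trehalose phosphate synthase, had 212, 233 and 250.3 CPM with nanoP, against 57.0, 36.8 and 67.7 CPM with -P (log2 fold change 2.102, SE 0.20, edgeR adjusted p = 1.8e-06). DIN10, a gene induced by sugar starvation and darkness, rose by 1.55 on the log2 scale, and the sucrose transporter SUC1 by 1.197.

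Cell cycle genes were lower with nanoP by small amounts. Of 21 mitotic genes, 14 fell and none rose (median -0.60), and of 17 DNA replication genes, 10 fell and 1 rose (median -0.29). Without nanoP replicate 3 the falls were 9 and 6, and without -P replicate 2 those of the replication genes were 6. The mitotic kinase CDKB2;2 had 19.4, 18.3 and 16.3 CPM with nanoP, against 40.2, 43.4 and 35.0 CPM with -P (log2 fold change -1.13, SE 0.13, edgeR adjusted p = 1.1e-05). TSO2, a subunit of ribonucleotide reductase, had 27.6 ± 3.45 CPM with nanoP, against 60.2 ± 6.77 CPM with -P (SD, n = 3 each) and fell by 1.12 on the log2 scale, and the replication clamp PCNA1 fell by 0.95. The meristem and root cap list had 4 rises and 2 falls among 9 tested (median 0.32), with 1 fall without nanoP replicates 2 or 3 or -P replicates 1 or 3. The root stem cell regulator PLT1 had 8.76, 8.90 and 7.58 CPM with nanoP, against 4.98, 4.44 and 3.28 CPM with -P (log2 fold change 0.997, SE 0.22, edgeR adjusted p = 0.0027), and SHR and SCR, which pattern the ground tissue, rose by 0.41 and 0.52 on the log2 scale.

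**Figure D4:**
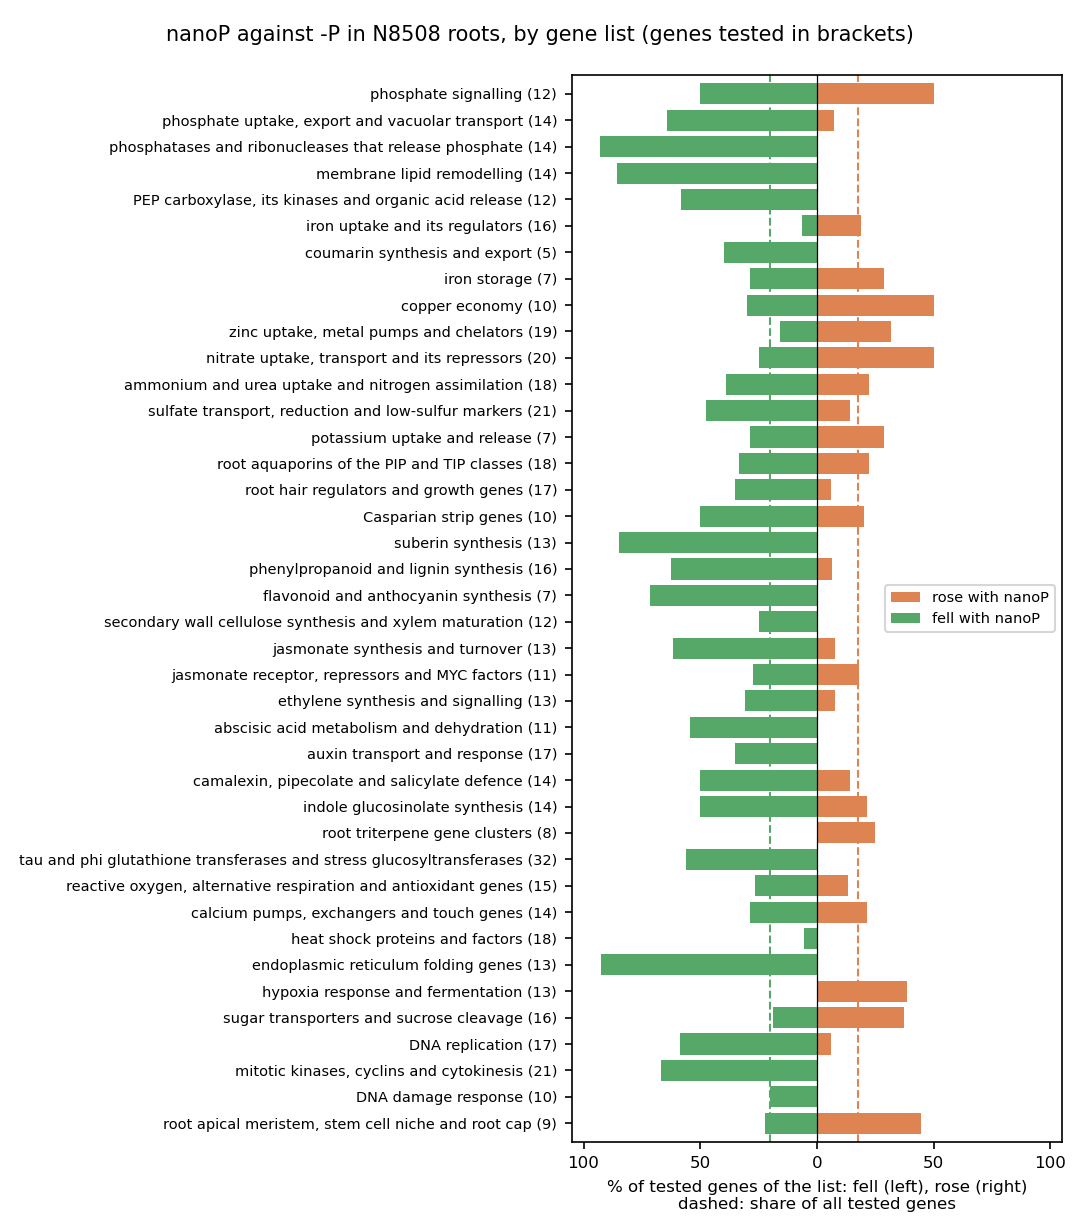
Share of the tested genes of each of the 40 lists that rose (right) or fell (left) with nanoP against -P in N8508, with the number tested in brackets and dashed lines at the shares of all genes tested (17.7% rose, 20.3% fell). Phosphatase, endoplasmic reticulum folding, lipid and suberin genes have the longest bars to the left, and phosphate signalling, copper and nitrate genes reach 50% to the right.

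The response of N8508 was tested against that of the other lines by the difference of the 2 fold changes, in a fit of all 66 libraries. Against Col-0, 2717 of 20839 genes differed (13.0%), 1149 with a higher fold change in N8508 (5.51%) and 1568 with a lower one (7.52%). Against N9416, 2027 genes differed (9.73%), 864 higher (4.15%) and 1163 lower (5.58%). With only the 12 libraries compared, 4000 genes differed from N9416, 2057 higher and 1943 lower, so both that count and its balance depend on the libraries in the fit. Both differences use the same N8508 libraries. The N8508 and N9416 libraries carry numbers of 1 run in the labels and those of Col-0 of another, so genotype and library series cannot be told apart in the comparison with Col-0. All CPM values of the next paragraphs are on the scale common to the 66 libraries.

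Many phosphate-starvation genes fell less with nanoP in N8508 than in Col-0 and N9416, and the levels of IPS1 and SPX1 with nanoP were higher. IPS1 was at 201, 197 and 203 CPM with nanoP in N8508, against 0, 0.198 and 0.135 CPM in Col-0 and 0.160, 1.27 and 0.0706 CPM in N9416. With -P it was at 1651, 1145 and 995 CPM in N8508, against 671, 798 and 883 CPM in Col-0 and 494, 442 and 383 CPM in N9416. The fold change of IPS1 was higher in N8508 than in Col-0 (difference 9.95, SE 0.82, edgeR adjusted p = 2.0e-13) and than in N9416 (difference 7.17, SE 0.72, edgeR adjusted p = 1.3e-10). Both depend on a few reads in the nanoP libraries of the other lines: without Col-0 nanoP replicate 2 the difference was 10.57, and without N9416 nanoP replicate 2 it was 9.14. SPX1 showed the same order of levels, with 409, 436 and 510.1 CPM with nanoP in N8508, against 6.99, 10.2 and 7.08 CPM in Col-0 and 11.3, 10.8 and 9.60 CPM in N9416. Of the 14 phosphatase genes, 7 had a higher fold change than in Col-0 and none a lower one, and of the 14 lipid genes 8 a higher and 1 a lower one. The list of PEP carboxylase, its kinases and organic acid release did not share this pattern. Of its 12 genes, 1 had a higher and 1 a lower fold change than in Col-0, and 1 a higher and 2 a lower one than in N9416. Its median log2 fold change was -1.08 in N8508, -0.56 in Col-0 and -0.31 in N9416.

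NPC4 and PPC3 did not have a smaller fall in N8508. Their fall was larger than in Col-0, and that of NPC4 was also larger than in N9416. NPC4 with nanoP was at 21.6, 20.4 and 26.4 CPM in N8508, against 38.2, 40.5 and 45.6 CPM in Col-0 (difference -1.72, SE 0.29, edgeR adjusted p = 1.6e-05) and 30.97, 35.9 and 30.6 CPM in N9416 (difference -0.98, SE 0.29, edgeR adjusted p = 0.019). The call of NPC4 against N9416 was lost without N8508 -P replicate 3, N8508 nanoP replicate 2 or N9416 -P replicate 2. PPC3 with nanoP was at 154, 115 and 133 CPM in N8508 and 579, 505 and 486 CPM in Col-0 (difference -2.12, SE 0.39, edgeR adjusted p = 7.8e-05). PHO2 reached lower levels with nanoP in N8508, at 524, 548 and 581 CPM, against 1709.9, 2581 and 2185 CPM in Col-0 and 1638, 1499 and 1437 CPM in N9416. Its rise was smaller than in Col-0 (difference -1.67, SE 0.42, edgeR adjusted p = 0.0041), and the difference from N9416 did not pass (difference -0.94, SE 0.42, edgeR adjusted p = 0.17). PHO1 rose in N8508, whereas its fold change was -0.23 in Col-0 and -0.53 in N9416, neither past the test, and N8508 differed from Col-0 (difference 1.17, SE 0.31, edgeR adjusted p = 0.0068) and from N9416 (difference 1.47, SE 0.31, edgeR adjusted p = 8.0e-04).

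Some named genes changed in opposite directions between the lines, of which 4 are given here. HMA2 rose with nanoP in N8508 and fell in Col-0 and N9416. It had 0.777, 0.989 and 1.15 CPM with nanoP against 33.4, 32.1 and 42.9 CPM with -P in Col-0, and the difference from N8508 was large (difference 7.34, SE 0.41, edgeR adjusted p = 3.3e-19). BT1 also rose in N8508 and fell in Col-0, where it had 24.0, 20.5 and 28.4 CPM with nanoP against 281, 314 and 408 CPM with -P (difference 6.30, SE 0.51, edgeR adjusted p = 8.8e-14). GDH3 fell in N8508 and rose in Col-0, with 146, 159 and 141 CPM with nanoP against 1.15, 0.770 and 0.652 CPM with -P there (difference -10.12, SE 0.51, edgeR adjusted p = 1.3e-20). UMAMIT19, of a family of amino acid exporters, had 6.47, 2.92 and 2.76 CPM with nanoP against 36.2, 44.2 and 82.7 CPM with -P in N8508, and 78.5, 87.0 and 125 against 4.79, 5.77 and 2.24 CPM in Col-0 (difference -8.24, SE 0.57, edgeR adjusted p = 7.3e-16). All 4 differed from N9416 in the same direction, with differences of 5.87, 3.57, -5.07 and -5.87 (edgeR adjusted p = 1.6e-16, 2.2e-07, 1.2e-12 and 9.6e-12).

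The fall of suberin genes in N8508 differed from the response of both lines. Of 13 genes, 11 had a lower fold change than in Col-0 and 10 a lower one than in N9416, and none a higher one. FAR4 was at 32.3, 26.0 and 34.2 CPM with nanoP in N8508, against 162, 195 and 207 CPM in Col-0 and 196, 159.8 and 164 CPM in N9416 (difference -3.29, SE 0.24, edgeR adjusted p = 8.3e-15 against Col-0). With -P the lines were closer, at 242, 172 and 218 CPM in N8508, 125, 122 and 147 CPM in Col-0 and 135, 144 and 167 CPM in N9416. DUR3 and NRT2.5 rose in all 3 lines, and their levels with nanoP were lowest in N8508. DUR3 had 49.0, 53.8 and 60.7 CPM with nanoP in N8508, against 1901, 1848 and 1461 CPM in Col-0 and 1400.0, 1407 and 1588 CPM in N9416 (difference -4.69, SE 0.37, edgeR adjusted p = 3.3e-14 against Col-0). HAK5 fell more in N8508 than in Col-0 (difference -2.57, SE 0.37, edgeR adjusted p = 7.0e-07), and in N9416 it rose (difference -4.70, SE 0.38, edgeR adjusted p = 2.8e-13). SKOR rose more than in both (difference 3.64, SE 0.43, edgeR adjusted p = 6.2e-09 against Col-0).

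**Figure D5:**
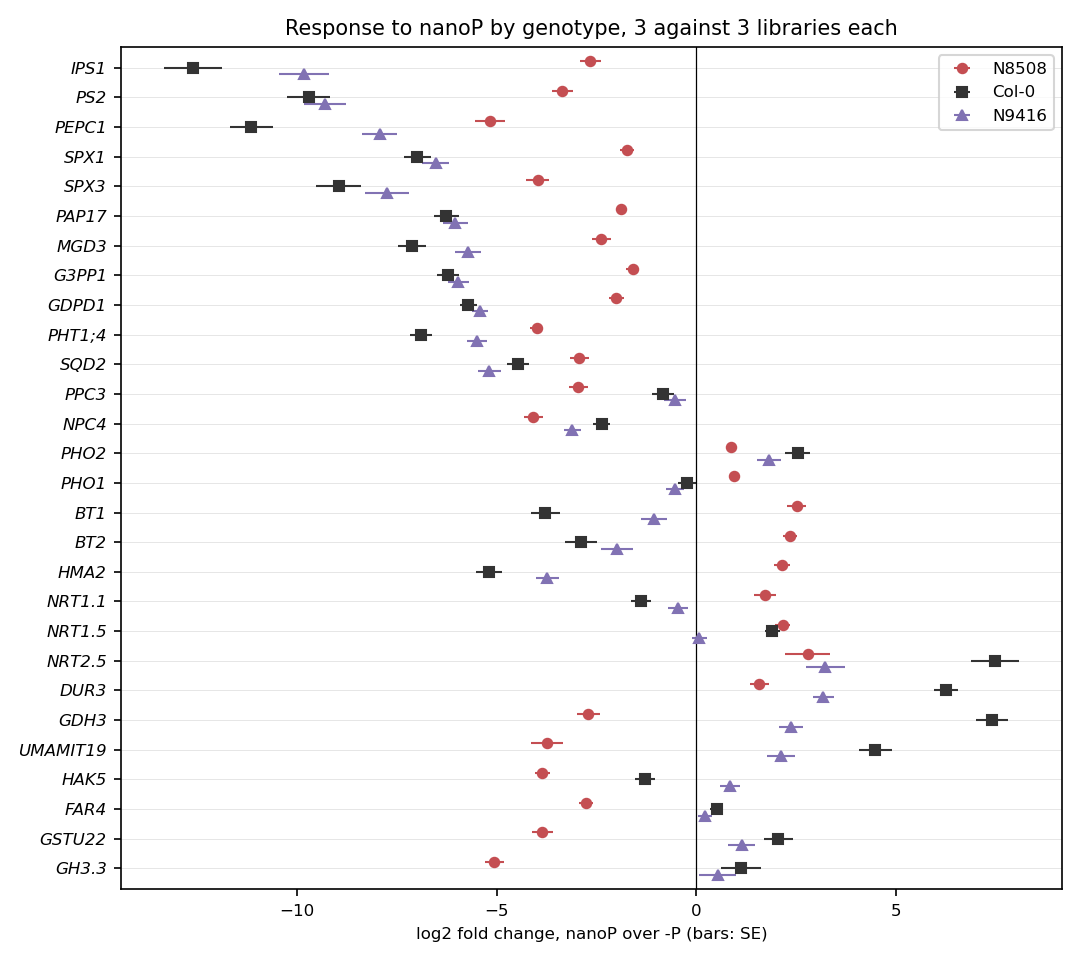
Log2 fold change of nanoP over -P with its SE for 28 genes in N8508, Col-0 and N9416, each comparing 3 with 3 libraries. Values of N8508 come from the fit of the N8508 libraries alone. Those of Col-0 and N9416 come from the fit of all 66 libraries. The estimated dispersion was 0.0214 in the N8508 fit and 0.0432 in the fit of all 66. The SEs of N8508 therefore cannot be compared with those of the other lines. The genes and their order were chosen by hand for display. Of the phosphate genes shown, IPS1 to SQD2 lie nearer to 0 in N8508 than in the other lines. PPC3 and NPC4 lie further from 0 in N8508 than in Col-0. HMA2, BT1, BT2, GDH3 and UMAMIT19 lie on opposite sides of 0.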

How the data were processed

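RNA was extracted with the Spectrum Plant Total RNA Kit and libraries were made with the NEBNext Ultra II Directional kit, per the labels' protocols. The authors deposited estimated counts and TPM per transcript model. The submitters' processing notes name Trimmomatic, Salmon 1.3.0 and the TAIR10 build, and give no order or settings. Of 32875 models, 99.99% had lengths that were multiples of 3, so lengths are coding lengths and reads from UTRs were not assigned to them. How reads shared by near-identical genes were divided is Salmon's estimate.

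Estimated counts were summed per locus (27313 genes), rounded to whole numbers, filtered by filterByExpr and tested with edgeR 4.0.16 in R 4.3.3 (quasi-likelihood F-test, TMM scaling, Benjamini-Hochberg over all genes tested, threshold 0.05). All 15 N8508 libraries entered the fit of nanoP against -P and of nanoP against mock, and all 66 libraries in 22 groups that of the differences between lines. SEs are the size of the log2 fold change over the square root of F. CPM values use TMM library sizes, and the deposited TPM values were used in no result. A gene with no read in 1 group is bounded with 3 reads over that group. Intervals from reads cover counting error only. DESeq2 1.42.0, another scaling, no filter, other sets of libraries and leaving out each library were alternatives. The test was checked on simulated counts. Lines were tested against each other only by their fold changes, and levels set side by side across lines are descriptions without a test. Sequences were read from the RefSeq TAIR10.1 assembly, whose coding lengths equalled those of the files in 96.81% of genes compared.

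The 40 lists and the named genes were chosen with earlier results of these data known. The named genes were PHO1, PHO2, PHT1;4, FER1, IRT1, SPX1 and IPS1, up to 6 genes of each list with the largest change past the threshold and 5 CPM or more, the 10 largest rises and falls of genes with symbols whose libraries did not overlap, and the 8 largest differences each way from each line. PHR1, PHT1;1, PHT1;2, PAP26, PAH2, FRO2, NRT1.1, WRKY33 and BIP1 lie outside that rule and were named after their values were seen.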

Additional observations from a re-analysis of the deposited data

Results flagged for a closer look

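The difference in response between N8508 and the other lines passed the interaction test for 2717 genes against Col-0 and 2027 genes against N9416. The values below are differences of log2 fold changes of nanoP over -P, N8508 minus the other line, all past an edgeR adjusted p of 0.05. CPM values are on the scale of all 66 libraries. A difference that rests on a group with no read depends on the prior count and is no bound.

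The gene MRD1 differed by 10.51 against Col-0 and 9.81 against N9416. The value against Col-0 rests on few reads: it was 9.33 and past no threshold without Col-0 -P replicate 2 (edgeR adjusted p = 0.29), and 13.57 without Col-0 nanoP replicate 3. It had 13.7, 8.29 and 11.04 CPM with nanoP and no read with -P in N8508, whereas N9416 had 24.9, 24.4 and 23.2 CPM with nanoP and 19.9, 18.3 and 17.3 CPM with -P, and Col-0 had 0, 0 and 0.202 CPM with nanoP and 0.0638, 0.192 and 0 CPM with -P. IPS1 differed by 9.95 and 7.17. The purple acid phosphatase PAP23 differed by 6.49 and 6.45, with no read in the nanoP libraries of Col-0 and N9416. The phosphatase-like gene PLL3 differed by 8.46 and 6.33, with 20.5, 27.0 and 32.0 CPM with nanoP in N8508, against 0.0777, 0.132 and 0.0674 CPM in Col-0 and 0.160, 0.170 and 0.212 CPM in N9416.

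Against Col-0, the sulfate transporter SULTR3;5 differed by 9.23 (9.96 without Col-0 nanoP replicate 1), with 34.8, 40.0 and 43.8 CPM with nanoP in N8508 against 0.233, 0.0659 and 0.0674 CPM in Col-0. HMA2 differed by 7.34 and the glycine-rich protein gene GRP9 by 7.17, with 728, 917 and 845 CPM with nanoP in N8508 against 0.855, 3.098 and 1.35 CPM in Col-0. Without Col-0 nanoP replicate 2 the difference of GRP9 was 7.86, and without Col-0 -P replicate 3 it was 5.93. CASP5 differed by 7.01 with no read in the -P libraries of N8508, and its call was lost in 10 of 17 alternatives. Left out 1 at a time, Col-0 nanoP replicate 1 gave 7.94 and N8508 nanoP replicate 3 gave 6.15. Against N9416, SLAH1 differed by 6.05 (6.96 without N8508 -P replicate 1), PS2 by 5.94 (6.59 without N9416 nanoP replicate 2), and PHT1;5 by 5.89 and the homeodomain gene HDG8 by 6.34, both with no read in the nanoP libraries of N9416.

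Chalcone synthase TT4 differed by -13.03 against Col-0 and -12.25 against N9416. It had 37.1, 54.8 and 24.3 CPM with -P in N8508, and no library of those groups in the other lines passed 0.40 CPM. Without N9416 nanoP replicate 3, the difference from N9416 was -11.56 with an edgeR adjusted p of 0.050, and without N9416 -P replicates 1 or 2 it was -11.63 or -13.23. GDH3 differed by -10.12 and -5.07, UMAMIT19 by -8.24 and -5.87, and UMAMIT9, of the same family, by -5.76 and -8.43. The call of UMAMIT9 against Col-0 was lost without Col-0 nanoP replicate 2 (difference -4.15, edgeR adjusted p = 0.19). Without N8508 nanoP replicate 1 its differences were -7.65 and -10.34. GH3.3 differed by -6.19 and -5.60, with 3.27, 1.34 and 2.99 CPM with nanoP against 95.0, 66.6 and 94.7 CPM with -P in N8508, and 51.6, 40.8 and 42.0 against 32.7, 29.8 and 30.2 CPM in N9416. GSTU22 differed by -5.93 and -4.999.

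Against Col-0, the ammonium transporter AMT1;5 differed by -11.34, a value that rests on 7 reads in N8508 and was lost without N8508 -P replicate 2. Without N8508 nanoP replicate 2 it was -13.24, without N8508 -P replicate 3 it was -11.98, and without Col-0 -P replicate 1 it was -12.14. Col-0 had 50.4, 32.0 and 17.599 CPM of it with nanoP. The SET domain gene SDG21 differed by -7.69, with no read in the -P libraries of Col-0. Its Col-0 reads with nanoP were all in replicate 3, without which the call was lost (edgeR adjusted p = 1.00). Against N9416, the malic enzyme gene NADP-ME1 differed by -7.08, with 0.149, 0.158 and 0.153 CPM with nanoP in N8508 against 11.3, 8.39 and 10.7 CPM in N9416, and the thioredoxin gene TH8 by -6.44. Without N8508 -P replicate 3 the difference of NADP-ME1 was -6.43, and without N8508 nanoP replicate 3 that of TH8 was -7.67.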

How the results depend on the processing

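With all 66 libraries in 1 fit, 5000 genes passed between nanoP and -P (2109 rose, 2891 fell) and 3262 between nanoP and mock, where the 15-library fit gave 7566 and 5752. The estimated dispersion was 0.0432 over 66 libraries and 0.0214 over the 15. With only the 12 libraries compared, 4000 genes differed from N9416 (2057 higher, 1943 lower), where the full fit gave 2027, and the cause was not tested. Leaving out 1 library gave 6013 to 7222 genes for nanoP against -P, 4086 to 4772 against mock, 2069 to 2626 for the difference from Col-0 and 1603 to 1935 for that from N9416. Scaling by library size alone, added after the data were seen, gave 7919 genes with 58.3% of them higher, against 46.6% with TMM, and for N9416 34.8% higher against 42.6%. RLE scaling, DESeq2 and no filter kept all 4 counts within 1.5 times. Of 243 results for named genes, 207 kept their direction and side of the threshold under every alternative run. Over all alternatives, a named gene lost its call 129 times and gained it 1 time (IRT1), and 0 reversed. No paired analysis was possible because the labels carry no replicate numbers that libraries of different groups share. Genes of under 1 CPM in a group rest on few reads, and their fold changes move most when a library is left out.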

Other observations

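Genes with the largest changes included several outside the groups described above. HOL2, a methyltransferase gene, had 22.4, 14.96 and 17.5 CPM with nanoP, against 1273, 935 and 1691 CPM with -P, with mock between them at 115, 154 and 292 CPM (log2 fold change -6.15, SE 0.53, edgeR adjusted p = 5.9e-07). PNP-A, a secreted natriuretic peptide, had 1.60, 0.809 and 1.33 CPM with nanoP, against 139.8, 69.1 and 123 CPM with -P (log2 fold change -6.46, SE 0.46, edgeR adjusted p = 8.1e-08). UMAMIT9 had 1 read in the nanoP libraries, against 1296 in the -P libraries, so that it was 1524 times higher with -P per assigned read, with an exact 95% counting interval of 273 to 60248. The relatives UMAMIT17 and UMAMIT20 went the other way: UMAMIT17 had 222, 227 and 247 CPM with nanoP, against 9.76, 6.06 and 14.5 CPM with -P (log2 fold change 4.498, SE 0.31, edgeR adjusted p = 5.6e-08), and UMAMIT20 had 88.2, 83.9 and 89.2 CPM with nanoP, against 1.76, 0.974 and 5.88 CPM with -P (log2 fold change 4.85, SE 0.41, edgeR adjusted p = 4.6e-07, and 5.98 without -P replicate 3). TDT, the tonoplast dicarboxylate transporter, which moves malate into the vacuole, had 28.8, 22.3 and 24.2 CPM with nanoP, against 1.87, 0.325 and 1.90 CPM with -P (log2 fold change 4.15, SE 0.38, edgeR adjusted p = 9.0e-07). LAS1, lanosterol synthase, had 41.3, 77.2 and 91.5 CPM with nanoP, against 1.87, 2.06 and 2.68 CPM with -P, with mock at 46.8, 53.9 and 57.5 CPM. CYP79C2 had no read with nanoP, against 13.8, 11.1 and 21.3 CPM with -P, a fall of at least 7.59 on the log2 scale with 3 reads as the floor. BAM5, a beta-amylase, had 0.838, 2.02 and 0.0782 CPM with nanoP, against 7.58, 173 and 35.2 CPM with -P, and its -P libraries differed among themselves by more than 20-fold (log2 fold change -6.19, SE 1.53, edgeR adjusted p = 0.005). Without -P replicate 2 its log2 fold change was -4.47, and without nanoP replicate 2 it was -7.24. GolS7, a galactinol synthase, had 0.152, 0 and 0.235 CPM with nanoP, against 15.5, 10.1 and 12.8 CPM with -P (log2 fold change -6.50, SE 0.47, edgeR adjusted p = 1.1e-07, and -7.16 without nanoP replicate 3).

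Indole glucosinolate genes moved in both directions, with 3 rises and 7 falls among 14 (median -0.46). CYP79B2 and CYP79B3, which catalyse the same first step from tryptophan, moved apart. CYP79B2 had 172, 143 and 161 CPM with nanoP, against 234, 390.0 and 318 CPM with -P (log2 fold change -0.98, SE 0.14, edgeR adjusted p = 7.8e-05), and CYP79B3 had 199.9, 209 and 190.2 CPM with nanoP, against 109, 124 and 77.9 CPM with -P (log2 fold change 0.95, SE 0.17, edgeR adjusted p = 5.7e-04). The regulator MYB51 rose by 1.31 on the log2 scale. Of 8 tested triterpene cluster genes, 2 rose and none fell (median 0.60). PEN1 had 77.8, 73.6 and 74.0 CPM with nanoP, against 33.9, 25.5 and 32.7 CPM with -P (log2 fold change 1.29, SE 0.11, edgeR adjusted p = 5.5e-07). Among 14 calcium and touch genes, 3 rose and 4 fell (median -0.10). The vacuolar exchanger CAX3 had 13.3, 15.8 and 16.2 CPM with nanoP, against 64.3, 79.8 and 62.5 CPM with -P (log2 fold change -2.19, SE 0.17, edgeR adjusted p = 2.4e-07), whereas the vacuolar calcium pump ACA4 had 123, 111 and 112 CPM with nanoP, against 37.8, 43.6 and 34.7 CPM with -P (log2 fold change 1.58, SE 0.10, edgeR adjusted p = 4.2e-08). Root hair genes had 1 rise and 6 falls among 17 (median -1.35, or -1.16 with genes lacking reads at their bound). RHD6, the factor that starts root hairs, had 8.15, 7.36 and 6.80 CPM with nanoP, against 12.2, 13.4 and 15.8 CPM with -P (log2 fold change -0.90, SE 0.16, edgeR adjusted p = 5.1e-04). The hair growth genes had uneven -P libraries: RHS19 had 29.6, 20.6 and 38.5 CPM with nanoP, against 28.2, 56.7 and 144 CPM with -P (log2 fold change -1.37, edgeR adjusted p = 0.035), and without -P replicate 3 its log2 fold change was -0.51 and its call was lost. Without that library the list had 2 rises and 2 falls, and without -P replicate 1 it had 10 falls.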
